A study of Rattus norvegicus with 36 samples.

Results

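Hopx, the homeodomain-only protein homeobox gene, was followed in the blood, the lung and the lavage cells of rats that had inhaled crystalline silica or air; lavage cells, called BALF cells here, are those washed out of the airspaces with fluid. The gene was chosen by its measured values, namely its large difference between silica and air in BALF cells, so that difference is given below as a description with no test. A single probe of the array carries the gene, 1 of 21792 probes, and Hopx is 1 of 21481 distinct genes named. The silica rats had breathed 15 mg/m3 of crystalline silica, 6 h daily on 5 days, and the air rats had breathed air with 0 mg/m3. All were male rats of the strain labelled Fisher (CDF) 344, approximately 3 months old by the label, with no genetic change named, and sampling followed the last exposure by 44 weeks. Each exposure group held 6 rats. The rat numbers in the labels are the same 12 for lung, BALF cells and blood, which makes 36 Illumina rat BeadChip arrays.

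Hopx encodes a very small protein with a homeodomain that, unlike those of other homeobox genes, does not contact DNA. In the mouse heart it binds serum response factor (SRF), keeps SRF from its target genes and brings in histone deacetylases, and it also links activated Smad proteins to the restraint of Wnt signalling. In the mouse lung it is a standard marker of alveolar type 1 cells, the flat cells across which gas is exchanged, and it is expressed in some effector T cells of mice and humans.

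Of the 21792 probes, a lung array detected between 10974 and 11607, a BALF cell array between 9229 and 9773 and a blood array between 7244 and 8861, at a detection p under 0.05 against negative-control beads. Lung arrays had a 95th percentile of raw signal between 2276 and 2980, BALF cell arrays between 2031 and 2901, and blood arrays between 514 and 1104. Hopx was detected on all 36 arrays. Its bead standard error was 1.34% to 4.71% of its signal, while the raw values of a group's 6 arrays had a coefficient of variation between 5.95% (silica lungs) and 39.6% (air blood). The number of arrays limits the precision, and nothing in the labels says whether the rats of a group shared a cage, a day of sampling or a batch of labelling.

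BALF cells of silica rats held far more Hopx signal than those of air rats. The raw intensity was 2727, 3136, 2847, 2233, 2929 and 1931 in silica replicates 1 to 6, against 229, 228, 301, 414, 231 and 270 in air replicates 1 to 6. The dimmest silica array was well above the brightest air array, and the groups did not overlap. After background correction and quantile normalization, Hopx averaged 11.30 ± 0.24 on the log2 scale in silica rats and 7.84 ± 0.26 in air rats (SD, n = 6 each). The difference was 3.46 ± 0.12 (log2, SE), which is 11.0-fold, with a 95% interval from 3.19 to 3.72. The lowest silica value lay 2.78 above the highest air value. By this gap Hopx ranked the 4th among the 9564 probes tested in BALF cells, behind the surface antigen gene Ly6c (3.19), the apolipoprotein gene Apoe (3.09) and the surface antigen gene Ly6e (2.81). The chemokine gene Ccl7 (2.77) and the decoy interleukin-1 receptor gene Il1r2 (2.69) came next. Apoe differed more between the groups than Hopx (5.72 log2), but its values also spread more among the silica rats, with an SD of 0.69 against 0.24 for Hopx. In these bulk samples, more or fewer cells of a type and more or less Hopx RNA per cell cannot be told apart.

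**Figure D1:**
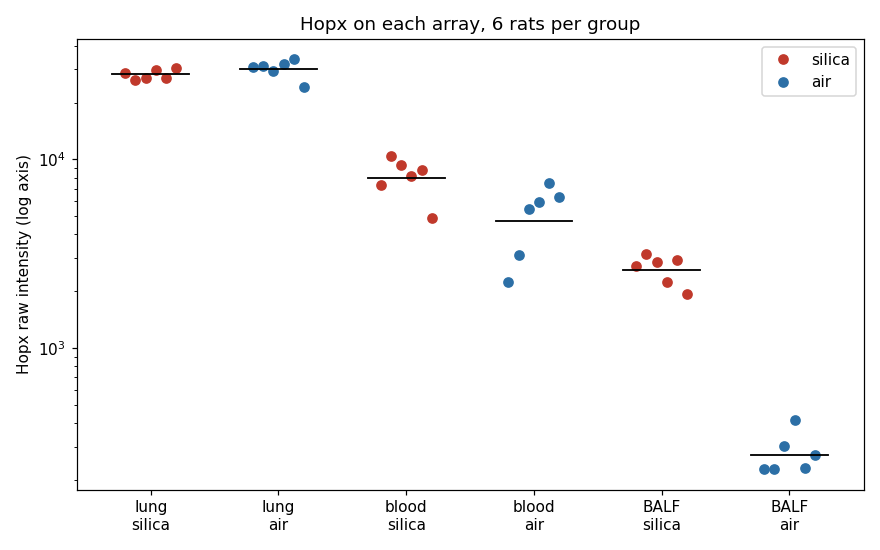
Raw Hopx intensity on each of the 36 arrays, on a log axis, by tissue and exposure; points are rats and lines are geometric means of 6 rats. The silica points of BALF cells (1931 to 3136) stand above all air points (228 to 414), while silica and air points overlap in lung and blood.

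With all 36 arrays normalized together, the order of Hopx levels was lung, then blood, then BALF cells, in silica and in air rats. In the lung the mean log2 level was 14.87 ± 0.021 in silica rats and 14.96 ± 0.078 in air rats, and in blood it was 13.23 ± 0.13 and 12.83 ± 0.36 (SD, n = 6 each). In BALF cells it was 10.99 ± 0.23 in silica rats and 7.81 ± 0.23 in air rats. The lung values of silica and air rats overlapped, as did the blood values, and the nearest values of the other neighbours in the order were at least 1.15 apart. Within a rat, the lung exceeded the BALF cells by 3.88 ± 0.23 log2 units in silica rats and by 7.15 ± 0.24 in air rats. Blood exceeded BALF cells by 2.24 ± 0.17 in silica rats and by 5.01 ± 0.31 in air rats. The gap between the lung and blood was 1.64 ± 0.12 in silica rats and 2.14 ± 0.40 in air rats. These levels compare 1 probe with itself across tissues whose overall signal differed, most of all in blood.

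In the lung, Hopx was among the brightest probes, from the 10th to the 31st brightest of an array. Its raw intensity was 28756, 26474, 26968, 29819, 26819 and 30377 in silica replicates 1 to 6, against 30702, 31410, 29399, 32168, 33874 and 24149 in air replicates 1 to 6. The silica arrays lay close together, and the air arrays held both the highest values and the lowest. On the normalized log2 scale the silica lungs averaged 14.77 ± 0.025 and the air lungs 14.88 ± 0.10 (SD, n = 6 each). All 6 silica arrays lay below the air mean, but air replicate 6, at 14.69, was below every silica array. The difference was -0.11 ± 0.055 (log2, SE), with a 95% interval from -0.23 to 0.0058, and did not pass limma's test over all 11399 lung probes (adjusted p = 0.178). An exact permutation test of Hopx alone, two-sided over 924 regroupings of the 12 rats, gave p = 0.0260. With the authors' processed values in place of the normalized ones, the difference was -0.15 with an adjusted p of 0.0324, which passes. The lung signal of Hopx was 72.6% to 86.6% of that of the brightest probe on the same array, close to the top of the scale, and whether the scale compressed its differences there was not tested.

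In blood, Hopx was higher on average in silica rats, but the spread was wide. The raw intensity was 7313, 10377, 9296, 8185, 8739 and 4911 in silica replicates 1 to 6, against 2245, 3099, 5447, 5922, 7528 and 6327 in air replicates 1 to 6. On the normalized log2 scale 5 of 6 silica arrays lay above the highest air array, and silica replicate 6, at 12.56, lay among the air values. The difference was 0.60 ± 0.20 (log2, SE), or 1.51-fold, with a 95% interval from 0.16 to 1.03. It did not pass limma's test over all 8044 blood probes (adjusted p = 0.210), while the exact permutation test of Hopx alone, two-sided, gave p = 0.0130. No blood probe passed (0% of 8044), and 1101 had an unadjusted p under 0.05.

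The blood value of Hopx moved with the overall signal of the array. Among the 6 air rats the log2 value correlated with the 95th percentile of the raw signal. Pearson's r was 0.873 (exact permutation p = 0.00278 over 720 orders, 0.0333 adjusted over 12 relations) and Spearman's rho was 0.943 (exact p = 0.0167). Without the 2 arrays farthest from the median signal, r was 0.863. Among the 6 silica rats r was 0.787 (exact permutation p = 0.0625, adjusted 0.375) and rho 0.714 (exact p = 0.136), and without the 2 farthest arrays r was 0.0665, so that relation rested on them. The 3 blood arrays of lowest signal were air replicate 1 (514), silica replicate 6 (565) and air replicate 2 (682). Without them, a choice made after the data were seen, the difference was 0.31 ± 0.086 (adjusted p = 0.327), and with the signal as a covariate it was 0.38 ± 0.16 (adjusted p = 0.310). The part of array signal in the blood difference was otherwise not tested.

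**Figure D2:**
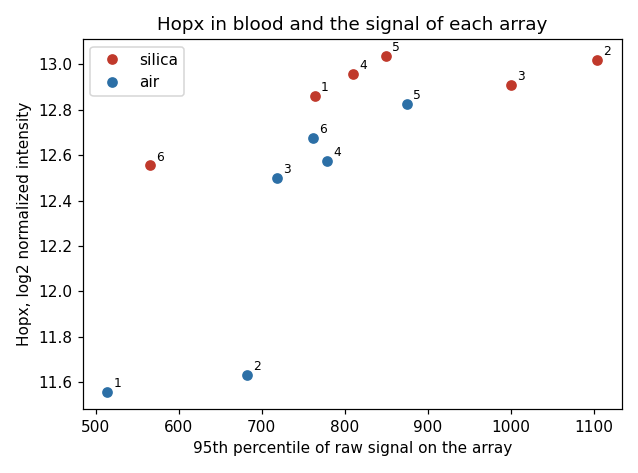
Normalized log2 Hopx intensity in blood (y axis) against the 95th percentile of the raw signal of each array (x axis), with silica rats in red, air rats in blue and replicate numbers beside the points. The 2 air arrays of lowest signal, replicates 1 and 2, have the lowest Hopx values, 11.56 and 11.63.

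Most other alveolar type 1 markers were at background level in BALF cells. Of 14 type 1 markers with a probe, 9 were detected on none of the 12 BALF cell arrays, among them Ager, the receptor for advanced glycation end products, the caveolin genes Cav1 and Cav2, the rhotekin Rtkn2 and the ion channel protein Clic5. Ager had a raw intensity of 61, 68 and 79 (lowest, median and highest) in silica rats and 61, 66 and 69 in air rats, at the level of the negative controls. The summed raw intensity of the 14 markers was 965 to 1070 in silica BALF cells and 970 to 1033 in air BALF cells. Of the 4 markers tested, 1 rose and 1 fell, where 35.4% of the 9564 BALF cell probes were called at an adjusted p under 0.05 in limma, 15.7% higher and 19.7% lower. The median log2 change of the 4 was -0.018, against -0.030 over all probes tested. The member that rose was Pdpn, podoplanin, a mucin-like membrane protein that macrophages can express as well. Its raw intensity was 89, 119 and 124 (lowest, median and highest) in silica rats and 63, 70 and 74 in air rats. It was detected on 6 of 6 silica arrays and on 0 of 6 air arrays, and was at least 1.63-fold higher in silica rats (log2 change 0.90 ± 0.092, adjusted p = 1.86e-06). Aqp5, a water channel, fell by 0.44 ± 0.14 (adjusted p = 0.0255), with raw medians of 96 in silica rats and 111 in air rats, a call that ended with a median shift, without the filter, with the authors' values and with limma's inferred control level (adjusted p of 0.0664 to 0.0773).

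In the lung, all 14 type 1 markers were tested, and 0 rose, 8 fell and 6 did not pass, where 19.3% of 11399 lung probes were called, 8.97% higher and 10.3% lower. Their median log2 change was -0.26, against -0.021 over all lung probes, and that of Hopx was -0.11. The largest called falls were those of the kinase-anchoring protein gene Akap5 (-0.52 ± 0.15, adjusted p = 0.0238, a call that ended without the filter, adjusted p = 0.0511), Aqp5 (-0.41 ± 0.086, adjusted p = 0.00441), Cav1 (-0.38 ± 0.068, adjusted p = 0.00160) and the semaphorin gene Sema3e (-0.32 ± 0.080, adjusted p = 0.0117). Cav1 had raw intensities of 933, 1001 and 1042 (lowest, median and highest) in silica lungs and 1043, 1313 and 1627 in air lungs, and its groups did not overlap. Ager had 6598, 6863 and 7282 in silica lungs and 7027, 8347 and 10085 in air lungs, and fell by 0.26 ± 0.066 (adjusted p = 0.0124). The summed raw signal of the 14 markers was 28941 to 34102 in silica lungs and 30828 to 44660 in air lungs.

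**Figure D3:**
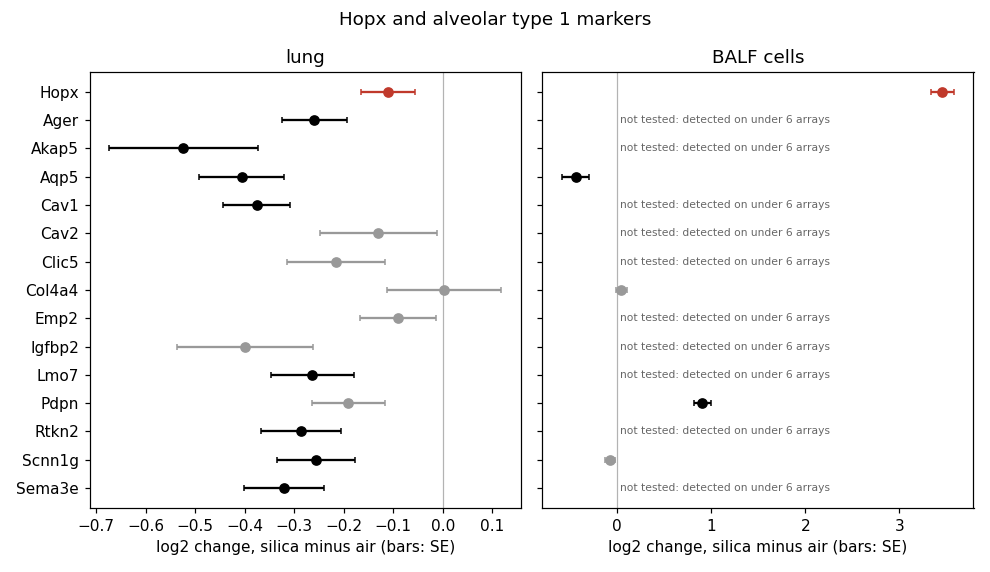
Log2 change (silica minus air, bars SE, 6 rats per group) of Hopx in red and of 14 alveolar type 1 markers, in lung (left) and BALF cells (right); black points passed an adjusted p under 0.05, grey points did not. Hopx stands at -0.11 in the lung and at 3.46 in BALF cells, where most type 1 markers were detected on too few arrays to be tested.

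Other epithelial lists were read against the 15.7% of BALF cell probes called higher and the 19.7% called lower. Of 11 alveolar type 2 markers with a probe, 6 were tested in BALF cells, and 2 rose and 2 fell (median 0.090). Of 8 club and ciliated cell markers, 5 were tested, and 0 rose and 3 fell (median -0.65). Of 10 markers of transitional alveolar epithelium, the cells between type 2 and type 1, 7 were tested, and 1 rose and 2 fell (median -0.061). The member that rose was Fn1, fibronectin, which macrophages also make (1.85 ± 0.15, adjusted p = 1.25e-07), and the keratin genes Krt19 (-1.10 ± 0.11, adjusted p = 1.24e-06) and Krt7 (-0.58 ± 0.14, adjusted p = 0.00425) fell. In the lung, where 8.97% of probes were called higher and 10.3% lower, 6 of 11 type 2 markers rose and 0 fell (median 0.24), and 1 of 8 club and ciliated cell markers rose and 2 fell (median -0.17). Of 9 transitional markers tested in the lung, 2 rose and 1 fell (median 0.064): the galectin gene Lgals3 (0.60 ± 0.090, adjusted p = 0.000436) and the growth factor gene Areg (0.51 ± 0.14, adjusted p = 0.0186) rose, and Krt7 fell by 0.21 ± 0.066 (adjusted p = 0.0356). The Krt7 call in the lung ended with a median shift (adjusted p = 0.0785) and the replicate block (adjusted p = 0.0550), and that of Areg with limma's inferred control level (0.048, adjusted p = 0.0743).

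Genes that Hopx is known to act with were also measured. Of 19 partners and regulators with a probe, 13 were tested in BALF cells, and 1 rose, 4 fell and 8 did not pass (median -0.094), where 35.4% of all BALF cell probes were called and their median was -0.030. Srf itself had a log2 change of -0.14 ± 0.061 in BALF cells (adjusted p = 0.0828), with raw intensities of 1066, 1228 and 1369 (lowest, median and highest) in silica rats and 1065, 1227 and 1767 in air rats. Hdac2, a histone deacetylase that Hopx recruits in the mouse heart, fell by 0.29 ± 0.081 (adjusted p = 0.0122), and Hdac1 had -0.094 ± 0.066 (adjusted p = 0.293). The signal transducers Smad1 (-0.40 ± 0.074, adjusted p = 0.000659) and Smad4 (-0.18 ± 0.059, adjusted p = 0.0271) fell, as did the SRF cofactor gene Elk1 (-0.28 ± 0.092, adjusted p = 0.0282). Mrtfa, another SRF cofactor, rose by 0.16 ± 0.055 (adjusted p = 0.0284). Each of these changes was under 1.5-fold, and with a median shift Hdac2, Elk1 and Smad4 no longer passed (adjusted p of 0.119, 0.149 and 0.285). Elk1 also failed without the filter, with the authors' values and with limma's inferred control level (adjusted p of 0.0644 to 0.0780). The transcription factor genes Gata4, Nkx2-1 and Nkx2-5 and the SRF cofactor gene Myocd were detected on no BALF cell array. In the lung, 15 of the 19 were tested, and 0 rose, 1 fell (Elk3, -0.28 ± 0.060, adjusted p = 0.00437) and 14 did not pass (median -0.049), among them Srf at -0.12 ± 0.056 (adjusted p = 0.148), where 19.3% of all lung probes were called.

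Targets of SRF and other homeobox genes were read against 35.4% of all probes called in BALF cells (19.7% lower) and 19.3% in the lung (10.3% lower). In BALF cells, 7 of 19 contractile and cytoskeletal targets of SRF were tested, and 0 rose and 2 fell, Myh9, a non-muscle myosin (-0.33 ± 0.075, adjusted p = 0.00317), and the filamin Flna (-0.22 ± 0.061, adjusted p = 0.0102), neither of which passed with a median shift (adjusted p = 0.0792 and 0.0534). In the lung, 16 were tested and 0 rose and 6 fell (median -0.17), with the smoothelin gene Smtn (-0.53 ± 0.11, adjusted p = 0.00414), the myosin light chain gene Myl9 (-0.47 ± 0.12, adjusted p = 0.0126) and Fhl1 (-0.42 ± 0.070, adjusted p = 0.000920) among them. Of the immediate early targets, 2 rose and 2 fell of 9 tested in BALF cells (median 0.095), and 1 rose and 3 fell of 10 tested in the lung (median -0.26). Wnt pathway targets, which Hopx restrains in the mouse heart, had 2 members that rose and 1 that fell of 5 tested in BALF cells, and 2 and 3 of 9 in the lung. Among 40 other homeobox genes with a probe, 21 were detected on no BALF cell array, and of 15 tested there 2 rose and 3 fell (median -0.033). Satb1, a chromatin organizer of T cells, was detected on no air array and was at least 1.2-fold higher in silica rats (adjusted p = 0.000138), with raw medians of 88 in silica rats and 56 in air rats. In the lung, 31 were tested and 0 rose and 6 fell, led by Hoxb4 (-0.61 ± 0.14, adjusted p = 0.00818) and Zeb1 (-0.57 ± 0.082, adjusted p = 0.000311).

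Among the lists of white blood cells, those of monocytes and recruited macrophages and of T and NK cells had mostly members that rose in silica BALF cells, where 15.7% of all probes were called higher. The part of these cells in the difference of Hopx was not tested. Of 15 monocyte and recruited macrophage markers with a probe, 14 were tested, and 11 rose and 1 fell (median 2.17, against -0.030 over all probes tested). Apoe (5.72 ± 0.38, adjusted p = 1.70e-08), the osteopontin gene Spp1 (3.38 ± 0.37, adjusted p = 4.76e-06) and the invariant chain gene Cd74 (3.16 ± 0.22, adjusted p = 2.58e-08) led. The summed raw signal of this list was 40489 to 70583 in silica rats and 32294 to 38263 in air rats. Of 9 resident alveolar macrophage markers, 2 rose and 5 fell (median -0.29), with the gluconeogenic enzyme gene Fbp1 at -2.08 ± 0.11 (adjusted p = 1.46e-09) and the nuclear receptor gene Pparg at -0.50 ± 0.091 (adjusted p = 0.000545). The 2 that rose were the carbonic anhydrase gene Car4, at least 2.95-fold higher in silica rats, and the fatty acid binding protein gene Fabp4 (0.57). The summed signal of the resident list was 14773 to 21682 in silica rats and 17817 to 25902 in air rats. Of 22 T and NK cell markers with a probe, 16 were tested, and 11 rose and 1 fell (median 0.51), led by the chemokine gene Ccl5 (3.53) and by Cd3g (2.47) and Cd3d (2.09), genes of CD3 subunits in the T cell receptor complex. Their sum was 3249 to 6299 in silica rats and 2404 to 2892 in air rats, and 3 of the 22 were detected on no BALF cell array. Neutrophil markers had 5 that rose and 2 that fell of 9 tested, with S100a8, a calcium-binding protein of neutrophil granulocytes, at 3.15, but their sum was 10924 to 12374 in silica rats and 11769 to 18150 in air rats. Of 16 cell division genes, 14 rose and 1 fell (median 0.51), and of 5 dendritic cell markers tested, 2 rose and 1 fell.

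In the lung, where Hopx did not pass, 12 of 15 monocyte and recruited macrophage markers rose and 0 fell (median 0.56), led by Spp1 (4.95 ± 0.37, adjusted p = 1.58e-06). Of 9 resident macrophage markers, 3 rose and 2 fell, of 11 neutrophil markers 2 rose and 0 fell, of 18 T and NK cell markers 2 rose and 0 fell (0 with the authors' values), of 8 dendritic cell markers 3 rose and 0 fell, and of 16 cell division genes 11 rose and 0 fell. In blood, the summed raw signal of T and NK cell markers was 19487 to 49623 in silica rats and 19267 to 28081 in air rats, and that of neutrophil markers 10450 to 21785 and 7702 to 17202, and no member of any list passed.

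**Figure D4:**
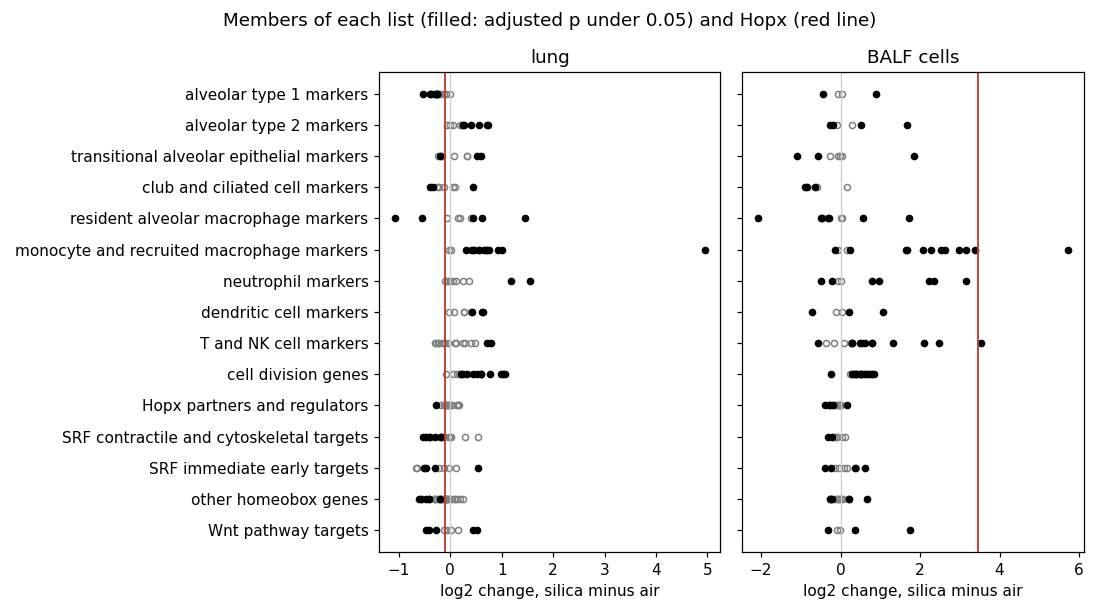
Log2 change (silica minus air) of every tested member of 15 gene lists in lung (left) and BALF cells (right); filled points passed an adjusted p under 0.05 and the red line marks Hopx. In BALF cells the red line, at 3.46, lies to the right of all members except Apoe and Ccl5.

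The genes whose BALF cell values were most like Hopx were found by Pearson's r over the 12 BALF cell arrays, where most of the likeness is the difference between silica and air. The 6 highest of 9560 compared were B3galnt1, a glycosyltransferase (r = 0.997), the integrin gene Itgam of monocytes and neutrophils (0.996), the G-protein regulator gene Rgs3 (0.995), Msantd3 (0.993), the phospholipase gene Pla2g7 (0.993) and the growth factor gene Pdgfa (0.993). Itgam had raw intensities of 341, 382 and 460 (lowest, median and highest) in silica rats and 89, 98 and 113 in air rats. Outside BALF cells they parted, since Rgs3 fell in the lung (-0.37 ± 0.079, adjusted p = 0.00464) and Pdgfa fell too (-0.32 ± 0.065, adjusted p = 0.00334), while Itgam rose (0.76 ± 0.10, adjusted p = 0.000206). The 6 lowest were Cela1, an elastase (-0.992), Fahd2a (-0.989), Gkap1 (-0.986), the peroxisomal enzyme gene Ech1 (-0.981), the glutathione transferase gene Mgst3 (-0.979) and RGD1305774 (-0.979). With each group's mean taken off, the 6 highest were Emp1, an epithelial membrane protein (0.914), Mrpl41 (0.866), Sh3bp2 (0.861), B3galnt1 (0.858), LOC500541 (0.855) and Mcub (0.846). B3galnt1 stood on both lists, and Emp1 was 1.48 ± 0.16 higher in silica BALF cells (adjusted p = 3.68e-06). Whether the r with group means taken off exceed the highest that chance would give among 9560 was not tested.

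In the lung, with group means taken off, the genes most like Hopx over 12 arrays included Myo1c, a myosin (r = 0.873), the protease gene Adam10 (0.870), Adi1 (0.865), the myosin light chain kinase gene Mylk (0.859) and LOC688712 (0.850). Mylk fell in the lung (-0.26 ± 0.076, adjusted p = 0.0256), and the others named here did not pass. These r are the highest of 11389 compared, and whether they exceed the highest that chance would give was not tested. Air replicate 6, at 14.69 for Hopx against 14.86 to 14.97 on the other air arrays, weighs heavily in them. Over all 36 arrays, a ranking added after the data were seen, the closest were the kinase gene Sik1 (0.988), Pxdc1 (0.981), the protease inhibitor gene Cst3 (0.979), LOC497777 (0.979), Ly6e (0.979) and Eef2k (0.976). This ranking follows mostly the difference between tissues. Sik1 had a mean log2 level of 7.27 in silica BALF cells and 5.22 in air BALF cells, and 9.95 and 10.15 in the lung. In blood, with group means taken off, the closest were Chi3l1, a chitinase-like protein of neutrophils and macrophages (0.975), MGC105649 (0.975), Fn1 (0.972), the phagocyte oxidase gene Ncf1 (0.969), Fuca1 (0.967) and Zfp36 (0.966). These points share the array signal described for blood.

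Among the 6 silica rats, 20 genes that differed between silica and air in BALF cells, picked with earlier results known, were set against Hopx there. Hopx was lowest in silica replicates 4 and 6, at 11.02 and 11.00, and between 11.32 and 11.52 in the other 4. Silica replicate 6 also had the lowest Spp1, 11.72 against 13.21 to 14.52 in the other 5, and the lowest Mmp12, macrophage elastase, 11.53 against 12.45 to 13.36. The same rat had the highest Ccl5, 10.92 against 8.27 to 9.29, and the highest RT1-Da, an MHC class II gene, 14.31 against 13.08 to 13.29.

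Pearson's r with Hopx was 0.907 for the palmitoyltransferase gene Zdhhc2, 0.892 for Apoe, 0.880 for Mmp12, 0.876 for Spp1, 0.838 for the monocyte chemoattractant gene Ccl2 and 0.805 for Ccl7. Each of these had an exact permutation p under 0.05, from 0.00694 (Mmp12) to 0.0347 (Ccl2), but none of the 20 passed after Benjamini-Hochberg adjustment over them (lowest adjusted p = 0.0764). For Spearman's rho over 6 rats the smallest possible exact p was 0.00278. By rho, a single gene therefore could not pass alone over 20 genes. That limit does not hold for Pearson's r, whose exact p can be lower. With only 6 rats, the lack of a call does not speak against a relation. Spearman's rho was 0.829 for Zdhhc2 (exact p = 0.0583), 0.771 for Apoe and for Spp1 (exact p = 0.103 each), 0.829 for Mmp12 (exact p = 0.0583) and 0.886 for Ccl2 and for Ccl7 (exact p = 0.0333 each), with a lowest adjusted p of 0.292. Without the 2 silica rats farthest from the median of Hopx, r was 0.490 for Zdhhc2, 0.608 for Apoe, 0.814 for Mmp12, 0.759 for Spp1, 0.909 for Ccl2 and 0.864 for Ccl7. Zdhhc2 had a lower mean in silica rats than in air rats (-1.56 ± 0.085, adjusted p = 1.81e-09), and within the silica rats its r with Hopx was positive. Krt19, also lower in silica rats, had a negative r (-0.801, exact permutation p = 0.0694, adjusted 0.198).

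The MHC class II genes, which differed between silica and air by about as much as Hopx, had negative r with it among silica rats. The r was -0.562 for RT1-Db1, -0.538 for RT1-Da and -0.539 for Cd74, with adjusted p of 0.545 for each, by an exact permutation test over 6 rats. These negative values rested on silica replicate 6: without it r was 0.421 for RT1-Db1, 0.618 for RT1-Da and 0.291 for Cd74. Among the 6 air rats the same 3 genes had r of 0.795, 0.915 and 0.912, with adjusted p of 0.333, 0.167 and 0.167, so that none of 20 relations passed there either. RT1-Da had a rho of 1 among air rats, with the smallest possible exact permutation p (0.00278), and its adjusted p was 0.0556. For Il1r2, Slfn3, the protease inhibitor gene Slpi, Chi3l1, the lipoxygenase gene Alox15 and the ferroxidase gene Heph, r lay between -0.240 and 0.231 in silica rats. The remaining relation genes, Ceacam4, Fbp1, Gipc2 and Pf4, had r from 0.331 to 0.488.

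**Figure D5:**
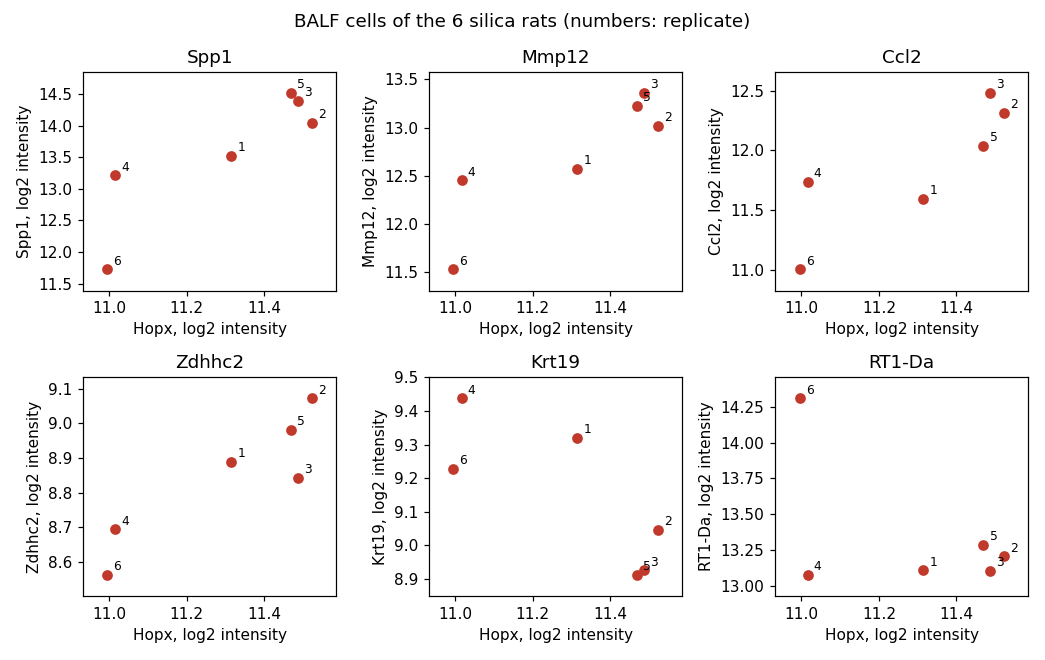
Log2 intensity of 6 genes (y axes) against that of Hopx (x axes) in BALF cells of the 6 silica rats, with replicate numbers beside the points. Spp1, Mmp12, Ccl2 and Zdhhc2 are lowest in replicate 6, the rat of lowest Hopx, and RT1-Da is highest there.

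No relation between Hopx in the lung and Hopx in BALF cells of the same rat passed in either group. Among silica rats r was 0.0077 (exact permutation p = 0.990) and rho -0.0857 (exact p = 0.919), and among air rats r was -0.022 (exact p = 0.960) and rho 0.0857 (exact p = 0.919). Without the 2 rats farthest from the median, r was -0.662 in silica rats and -0.646 in air rats. Hopx in the silica lungs had an SD of only 0.025 log2, with a bead standard error of 1.34% to 3.59% of its signal there. So little spread left the silica test of lung against BALF cells hardly able to find a relation. Blood and BALF cells had r = 0.661 in silica rats (exact permutation p = 0.124) and 0.538 in air rats (exact p = 0.265), and lung and blood had 0.580 and -0.438 (exact p = 0.229 and 0.414). The adjusted p over the 12 relations of Hopx between tissues and with array signal was at least 0.375 for each of these 6.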

How the data were processed

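Hopx and the gene lists were chosen with earlier results of these data known. Per the file headers, the deposited tables give each probe's average bead intensity per array, not normalized between arrays, its bead standard error, its bead number and the p-value of its detection over negative controls. The authors' processed values, a further deposited table, are on a log2 scale whose treatment of dim probes is unknown. BeadStudio, lumi and limma stand in the submitters' processing notes, with neither versions nor roles.

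Here the intensities were corrected with limma 3.58.1 (R 4.3.3) by normexp, offset 16, quantile normalization within a tissue and log2. The negative-control level was inferred from detection p-values, leaving out 570 to 647 probes per array whose p is no multiple of that of a single control bead type (825 beads); limma's own inference keeps them and gave a control SD of 157 to 355, against 14.7 to 21.9, so it is an added alternative. Tested were probes detected (p under 0.05) on 6 or more of a tissue's 12 arrays, with limma's moderated two-sided test (lmFit, eBayes) and Benjamini-Hochberg adjustment at 0.05. A gene detected on no array of a group is given as a bound against the lowest detected signal of each array. Figures were drawn with matplotlib. Probe names were updated through RefSeq's GRCr8 gene table (9918 current symbols, 4817 synonyms, 6940 kept as in the file, 117 with none); Cela1, Sik1, RT1-Da and Fuca1 are Ela1, Snf1lk, H2-Ea and Fuca in the files. A list holds 1 probe per gene, the brightest. Named were Hopx, up to 4 called members by size per described list (other members as values), the 20 relation genes and the 6 genes most or least like Hopx; likeness over 36 arrays and in blood, and the 4 genes of widest gap, were added after seeing values. The values of 3 genes that the rule takes in are not reported here; list counts include them, and the closing counts of single genes and single arrays do not.

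Deviations of same-numbered silica and air samples had correlations of -0.310 to 0.331, and of -0.052 to 0.24 in BALF cells. There 3 of 6 numbers matched best with their own number, against 1 of 6 in lung and in blood. Replicate numbers were not treated as pairs, and whether same-numbered samples shared a batch was not tested. Arrays of a group correlated at 0.974 or more, with no identical pair. Blood silica replicate 6, the blood array flagged below for its Hopx value, is numbered differently in its title and description. It was matched through its description, and its label gives the rat number of silica replicate 6 in lung and BALF cells. The fits were tested on simulated data. Alternatives were no background correction, median shifts, other filters, the authors' values, trend and robust eBayes, array weights, the replicate block, joint normalization and leaving out each array. Slide and scan date: not given in the sources used here.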

Additional observations from a re-analysis of the deposited data

Results flagged for a closer look

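Hopx was set apart on several counts. Every silica array lay above the air mean in BALF cells (change 3.46) and in blood (0.60) and below it in the lung (-0.11), and these differences between tissues were not tested. Car4, a carbonic anhydrase, was higher in silica BALF cells on every array (measured log2 difference 1.71) and lower in silica lungs (-0.54), also untested between tissues. It was detected on no air BALF cell array, so it was at least 2.95-fold higher there (adjusted p = 2.58e-08).

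Of 150 groups of 6 arrays checked, 18 held an array far from the other 5. Chance would flag about 1 in 20 groups if they were independent. These groups share arrays, so whether 18 exceeds chance was not tested. In blood, silica replicate 6 had a Hopx value of 12.56, with the others at 12.86 to 13.04; its array signal was the second lowest in blood. In BALF cells, silica replicate 6 was high for RT1-Db1 (13.20), RT1-Da (14.31) and Cd74 (11.03), while its Hopx value was the lowest of the silica rats. Silica replicate 3 was apart for Smad1 (6.92), Ceacam4 (10.74), Alox15 (8.60) and Pf4 (12.31), and silica replicate 1 for Hhex (10.78).

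Air replicate 4, which had the highest Hopx of the air rats in BALF cells, was high for S100a8 (7.99), Cxcr2 (5.55), Mmp8 (5.38), Il1r2 (7.50), Slpi (7.93) and Slfn3 (8.70). Air replicate 6 was high for Apoe (8.41), with the other air rats at 5.66 to 6.68. In the lung, silica replicate 5 was high for Areg (6.46) and air replicate 4 was low for Cd3e (6.11).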

How the results depend on the processing

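The Hopx difference in BALF cells stayed positive under every alternative run, from 2.70 with the authors' processed values to 3.51 with array weights. Leaving out each array gave 3.39 to 3.53. It was 3.13 without background correction, 3.17 with the 36 arrays normalized together and 3.31 with limma's inferred control level. The lung difference stayed negative and uncalled, except with the authors' processed values (-0.15, adjusted p = 0.0324), and leaving out each array gave -0.15 to -0.094. The blood difference was never called, at 0.45 to 0.70 when each array was left out. With the replicate block the differences were -0.11 (adjusted p = 0.257) in the lung, 3.46 in BALF cells and 0.60 (adjusted p = 0.284) in blood, and the block changed no call of Hopx; the labels pair no samples by number.

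A median shift called 2553 probes in BALF cells, 62.6% of them higher, against 3384 and 44.4%. In blood 1 probe was called without air replicate 6 and 0 in every other setting (0 to 1 when each array was left out). Of 1647 values of named genes, 1556 kept their call, 91 lost it and 0 turned sign. All of these genes were picked as called in the main fit, so a call could be kept or lost but not gained. Over the lists, 637 of 690 counts stayed within 1.5 times. For Hopx in the lung against BALF cells, silica rats gave r = -0.430 with a median shift, -0.0211 with joint normalization and -0.681 to 0.495 when each rat was left out, and air rats gave 0.0979 with the authors' values and 0.0269 with limma's control level. The order of Hopx across tissues held in all 4 alternatives. With a median shift r with Hopx was 0.0254 for Slpi and 0.00988 for Alox15. When each silica rat was left out, r ran from -0.359 to 0.548 for Il1r2, -0.417 to 0.590 for Slpi, -0.219 to 0.424 for Chi3l1, -0.394 to 0.614 for Alox15, -0.927 to 0.421 for RT1-Db1, -0.897 to 0.618 for RT1-Da, -0.824 to 0.291 for Cd74, -0.270 to 0.382 for Heph and -0.141 to 0.588 for Gipc2, and no relation passed in any setting. When a silica rat was left out, too few rats remained for a single gene to pass alone after adjustment over the 20 genes, whatever its r. That limit did not hold for r with all 6 silica rats. The cause of the shifts above was not tested.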
